A study of Mus musculus with 6 samples.

Results

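The receptors that cells use to read Wnt signals were followed in mouse embryonic stem cells with and without E-cadherin. They comprise 8 Frizzled genes (Fzd2, Fzd3, Fzd4, Fzd5, Fzd6, Fzd7, Fzd8 and Fzd10) and the co-receptor genes Lrp5 and Lrp6. These 10 genes were chosen by symbol, as the rows whose Ensembl identifier carries that name, out of 55401 genes in the count table. RNA came from V6.5, a mouse embryonic stem cell line, in 3 libraries of wild-type cells (WT) and 3 libraries of Cdh1-/- cells (knockout), each set lettered A, B and C. Cdh1 encodes E-cadherin, the adhesion protein that joins embryonic stem cells and binds beta-catenin on its cytoplasmic side. The title of the series ties E-cadherin to the stability and activity of beta-catenin, the protein through which Wnt receptors act on transcription. The labels name no clone, no separate culture and no way in which Cdh1 was disrupted, so p-values measure the spread between these libraries, which may be technical.

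Frizzled proteins are multi-pass membrane receptors whose extracellular cysteine-rich domain binds the lipid-bearing Wnt ligand and whose cytoplasmic side recruits Dishevelled. Lrp5 and Lrp6 are large single-pass proteins of the lipoprotein receptor family that join a Frizzled around the same ligand; their phosphorylated tails draw Axin to the membrane, which keeps beta-catenin from being degraded. In mouse embryonic stem cells Wnt signalling of this kind is known to help maintain self-renewal, and other Frizzled outputs organise cell polarity without beta-catenin.

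The coding stretches through which these receptors reach Dishevelled and Axin are shown first, because they are what the Frizzled genes and what the Lrp genes have in common. In the longest coding transcript of GENCODE M21, each of the 8 Frizzled genes held 1 match to the codons for lysine, threonine, any 3 residues and tryptophan, the stretch known to bind Dishevelled. It lay close to the protein's end in Fzd2 and Fzd7, with 17 codons after it in each. It lay far from the end in Fzd3 and Fzd6, with 159 and 206 codons after it. The lysine, threonine and tryptophan codons are in capitals, and the Fzd8 stretch is not printed here.
Fzd2: AAGACActgcactcgTGG
Fzd7: AAGACCctgcagtcaTGG
Fzd10: AAGACCctgcagtccTGG
Fzd5: AAGACTctggagtctTGG
Fzd4: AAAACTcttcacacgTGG
Fzd3: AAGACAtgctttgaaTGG
Fzd6: AAGACGtgcacagaaTGG
The co-receptors each held 2 exact matches to the codons for proline, proline, proline, serine and proline, the stretch whose phosphorylated serine is known to serve Axin binding. In Lrp5, of 1614 codons, the matches began at codons 1499 and 1605, and in Lrp6, of 1613 codons, at codons 1487 and 1604. The serine codon is in capitals.
Lrp5 first: ccacccccgTCCccg
Lrp5 last: cccccaccgTCCccc
Lrp6 first: ccaccaccaTCGcct
Lrp6 last: ccaccacccTCCccc
Identical stretches between the genes were short. Among pairs of the 10 genes, the longest identical coding stretch was 38 bases, shared by Fzd2 and Fzd7, and it ran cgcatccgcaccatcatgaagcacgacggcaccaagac. In each of the 10 genes, 0 of the 50-base windows of the longest coding transcript occurred in another Frizzled or Lrp5/6 transcript.

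All 6 libraries were of similar depth, with total counts between 18020719 and 23381942, and the 10 receptors had between 40 and 4880 counts in a library. Levels within a gene are given as CPM, a count scaled by the library total with the TMM method. Levels between genes are given as RPKM, the same values per kilobase of annotated exon. Cdh1, the targeted gene, averaged 559 ± 19.1 CPM over the WT libraries and 173 ± 9.05 CPM over the knockout libraries (SD, n = 3 each), so 30.9% of its WT level remained. It was called lower by edgeR's quasi-likelihood test, with a log2 fold change of -1.70 and an adjusted p of 2.9e-08. The labels do not say which exons were disrupted, so the remaining counts do not tell whether the knockout transcript is intact. The threshold for a call was a Benjamini-Hochberg adjusted p of 0.05 over 17325 tested genes. By that rule 2307 genes or 13.3% were called, 7.6% higher and 5.71% lower in the knockout, and in 30.7% of tested genes the libraries of the 2 genotypes did not overlap.

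In WT cells Fzd7 was the most abundant of the 10 transcripts per length, at 44.8 RPKM on average, and Fzd5 followed at 25.2 RPKM. Lrp6 at 14.4 RPKM and Lrp5 at 14.1 RPKM overlapped each other and came next. Fzd10 at 4.41, Fzd2 at 4.09, Fzd3 at 3.52 and Fzd6 at 3.43 RPKM formed a run in which each gene's libraries overlapped those of the next. Fzd4 stood below them at 1.81 RPKM, and Fzd8 was lowest at 0.558 RPKM.

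In knockout cells the order changed at the top and in the middle. Fzd5, at 27.5 RPKM, came ahead of Fzd7, at 23.4 RPKM, and their libraries overlapped, since Fzd5 ranged from 22.4 to 30.8 RPKM and Fzd7 from 22.7 to 24.2 RPKM. Lrp5 at 16.1 RPKM and Lrp6 at 14.3 RPKM again overlapped. Fzd3 moved to the head of the middle run at 5.15 RPKM, before Fzd6 at 4.74, Fzd10 at 4.56 and Fzd2 at 3.84 RPKM, each overlapping the next. Fzd4 at 2.16 RPKM and Fzd8 at 0.735 RPKM kept the lowest places.

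**Figure D1:**
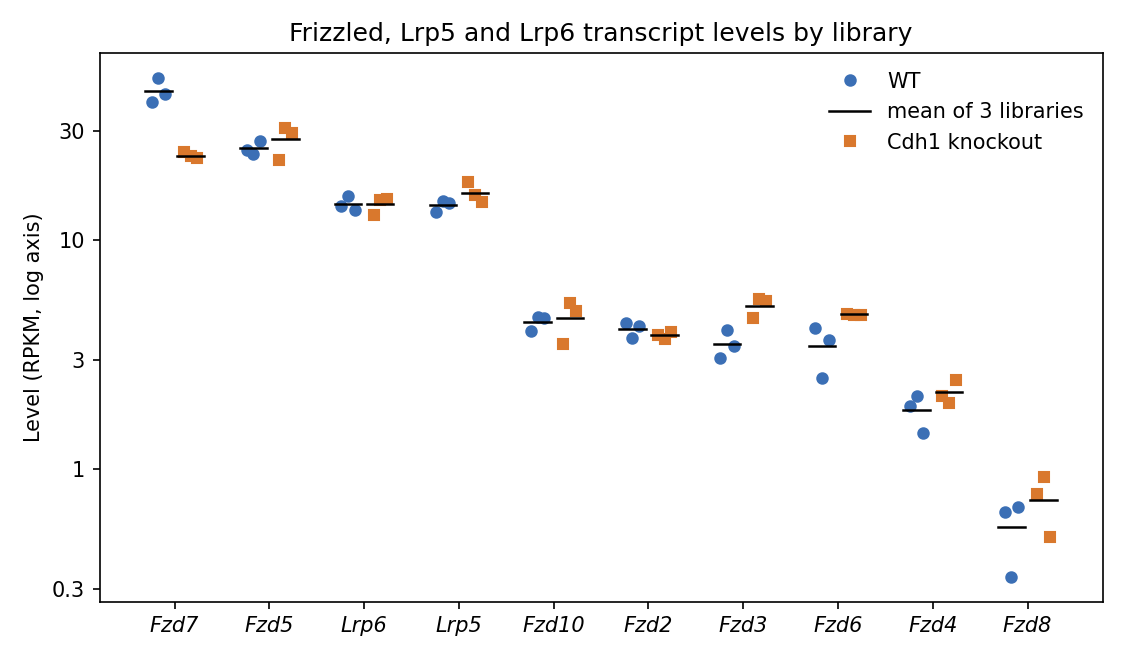
Level of each receptor transcript on a log axis in RPKM, ordered by the WT mean, with circles for the 3 WT libraries, squares for the 3 knockout libraries and a bar for each mean. Fzd7 drops from a WT mean of 44.8 RPKM to 23.4 RPKM with no overlap, while Lrp6 lies at the same height in both genotypes (14.4 and 14.3 RPKM).

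Fzd7 is a Frizzled known for its high expression in pluripotent stem cells. It is a gene with 1 exon on chromosome 1 (ENSMUSG00000041075.8, GRCm38 chr1:59482424-59486955, plus strand, 4532 exon bases). It measured 182, 231 and 196 CPM in WT A, B and C and 110, 105 and 103 CPM in knockout A, B and C. Every knockout library was below every WT library, and the knockout libraries lay close together. The mean fell from 203 ± 25.1 to 106 ± 3.50 CPM (SD, n = 3), to 52.2% of WT. The log2 fold change was -0.94 (SE 0.10, 95% interval -1.15 to -0.73), with an adjusted p of 2.05e-05 by edgeR's quasi-likelihood test. It lay between -1.01 and -0.84 when any 1 library was left out.

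The bases before the start site of Fzd7 and Fzd5 are printed because these are the most abundant Frizzled transcripts, and lie on the same chromosome, where the first was called lower and the second was not called. RefSeq's promoter table (GRCm38.p6) had an entry for 4 of the 10 genes, Fzd4, Fzd5, Fzd7 and Fzd10. The 250 bases before the start site were searched on both strands for the GC box GGGCGG, the CCAAT box, the TATA box in the form TATAAA, and 4 runs of letters that TCF and LEF factors favour. These runs were CTTTGAA with its variant that ends in T instead (CTTTGAT), the related run CTTTGTA, and its own variant that ends in T (CTTTGTT). Matches are in capitals, and some GC boxes overlap each other.
Fzd7, chr1:59481897-59482146, plus strand: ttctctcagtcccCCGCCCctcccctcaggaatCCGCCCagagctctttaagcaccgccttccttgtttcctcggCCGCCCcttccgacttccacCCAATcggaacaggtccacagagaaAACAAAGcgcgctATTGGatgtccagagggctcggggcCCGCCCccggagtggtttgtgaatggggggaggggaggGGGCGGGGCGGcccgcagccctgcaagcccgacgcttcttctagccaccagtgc
Fzd5, chr1:64737751-64738000, minus strand: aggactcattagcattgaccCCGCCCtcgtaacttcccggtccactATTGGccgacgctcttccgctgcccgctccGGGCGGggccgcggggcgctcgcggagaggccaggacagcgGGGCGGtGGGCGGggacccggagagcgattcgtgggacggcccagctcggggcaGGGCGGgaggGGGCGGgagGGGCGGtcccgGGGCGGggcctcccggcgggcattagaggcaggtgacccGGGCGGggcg
The Fzd7 window held 6 GC boxes, 2 CCAAT matches and 1 TCF/LEF match, CTTTGTT on the opposite strand (AACAAAG as printed). The Fzd5 window held 9 GC boxes and 1 CCAAT match. The Fzd4 window held 7 GC boxes and 1 CCAAT match, and the Fzd10 window held 1 GC box. None of these 3 windows held the TCF/LEF letters. Of 32851 promoters searched over the same length, 14.8% held a TCF/LEF match, 32.7% a GC box and 33.8% a CCAAT match. The GC content was 65.2% for Fzd7 and 76.4% for Fzd5, against a median of 52.4% over these promoters. None of the 4 windows held TATAAA, which 12.4% of promoters held. The start sites are those of RefSeq and differ in places from the starts of the counted genes. The Fzd7 window ends at 59482146, and the counted Fzd7 gene starts at 59482424. The Fzd10 window, chr5:128600856-128601105, lies inside the counted exon of Fzd10, so there it does not precede the counted gene. A match describes letters in a window and was not measured as a bound site.

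Fzd5 is a Wnt receptor known for its part in blood vessel growth of the yolk sac and in eye development. It also lies on chromosome 1 (ENSMUSG00000045005.9, chr1:64730558-64737751, minus strand, 6915 exon bases). It measured 171, 164 and 187 CPM in WT A, B and C and 155, 213 and 203 CPM in the knockout libraries. Knockout A was below every WT library and knockout B and C were above them, so the genotypes overlapped. The means were 174 ± 12 and 190 ± 31.3 CPM (SD, n = 3), and the log2 fold change of 0.13 was not called (95% interval -0.11 to 0.37, adjusted p of 0.514). The interval spans from 0.926-fold to 1.29-fold of WT. On the opposite strand the long transcript Gm38058 covers 17.8% of the Fzd5 exon bases, and it had 2 to 12 counts per library. Whether counting used strand is not given in the sources used here, so reads of overlapping genes on opposite strands may not be told apart.

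Fzd3 is a Frizzled known for axon guidance and, with Fzd6, for planar cell polarity, the alignment of cells within a sheet. It lies on chromosome 14 (ENSMUSG00000007989.7, chr14:65192449-65262463, minus strand, 12734 exon bases in 7 exon intervals). It measured 39.1, 51.6 and 43.8 CPM in WT A, B and C and 57.9, 70.1 and 68.9 CPM in the knockout libraries. All 3 knockout libraries were above all 3 WT libraries. The mean rose from 44.8 ± 6.34 to 65.6 ± 6.75 CPM (SD, n = 3), with a log2 fold change of 0.55 (SE 0.12, 95% interval 0.30 to 0.80) and an adjusted p of 0.00578 by edgeR. The call held without any 1 library, with the highest adjusted p at 0.0462 without WT A. It was lost once the shift of the whole of chromosome 14 was removed, as described with the chromosomes.

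Fzd6, which acts with Fzd3 in the alignment of hair and sensory cells, lies on chromosome 15 (ENSMUSG00000022297.15, chr15:39006034-39038188, plus strand, 4382 exon bases in 7 exon intervals). It measured 18.1, 11 and 16 CPM in WT A, B and C and 20.9, 20.7 and 20.7 CPM in the knockout libraries. The knockout libraries were nearly equal and above every WT library, among which WT B was lowest. The means were 15 ± 3.67 and 20.8 ± 0.114 CPM (SD, n = 3), and the log2 fold change of 0.46 (95% interval 0.11 to 0.82) did not pass, at an adjusted p of 0.0822 by edgeR. It passed at 0.0202 with no filter on low counts, and without WT B the log2 fold change was 0.28 (adjusted p of 0.268). Gm26704, on the opposite strand, covers 3.47% of its exon bases and had 1 to 14 counts per library.

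None of the remaining 4 Frizzled transcripts was called. Fzd2, a close relative of Fzd7 with 1 exon (ENSMUSG00000050288.6, chr11:102604396-102608058, plus strand), measured 15.8, 13.6 and 15.4 CPM in WT and 14.1, 13.5 and 14.5 CPM in the knockout. These ranges overlapped, and the log2 fold change was -0.09 (95% interval -0.39 to 0.21, adjusted p of 0.743 by edgeR). Fzd4, the receptor for Norrin in retinal vessels (ENSMUSG00000049791.4, chr7:89404355-89413134, plus strand), measured 12.7, 14 and 9.70 CPM in WT and 14, 13.1 and 16.4 CPM in the knockout. WT C was lowest and knockout C highest, with overlap between, and the log2 fold change was 0.26 (95% interval -0.10 to 0.62, adjusted p of 0.367).

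Fzd10, a receptor studied mainly in neural tube and tumours (ENSMUSG00000081683.5, chr5:128600844-128604093, plus strand), measured 13.1, 15 and 14.9 CPM in WT and 11.4, 17.2 and 15.8 CPM in the knockout. The knockout libraries spread to both sides of the WT libraries, and the log2 fold change was 0.05 (95% interval -0.30 to 0.41, adjusted p of 0.885 by edgeR). Fzd8, the closest relative of Fzd5 (ENSMUSG00000036904.6, chr18:9212163-9218136, plus strand), measured 3.87, 2.02 and 4.10 CPM in WT and 4.64, 5.50 and 3.03 CPM in the knockout. The libraries overlapped, and the log2 fold change was 0.40 (95% interval -0.27 to 1.07, adjusted p of 0.464). With 40 to 126 counts in a library, Fzd8 is the least precise of the 10, and its interval reaches from 0.826-fold to 2.1-fold of WT.

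Neither co-receptor was called. Lrp6, the co-receptor that most Wnt/beta-catenin signalling in the embryo needs (ENSMUSG00000030201.15, chr6:134446476-134566913, minus strand, 9368 exon bases in 23 exon intervals), measured 132, 145 and 127 CPM in WT A, B and C. It measured 121, 140 and 141 CPM in the knockout libraries, of which A was below every WT library and B and C lay among them. The means were 135 ± 9.56 and 134 ± 11.4 CPM (SD, n = 3), with a log2 fold change of -0.01 (95% interval -0.21 to 0.19, adjusted p of 0.971 by edgeR). The interval limits a change to between 0.867-fold and 1.14-fold of WT.

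Lrp5, known for its control of bone mass (ENSMUSG00000024913.16, chr19:3584828-3686564, minus strand, 6008 exon bases in 23 exon intervals), measured 79.3, 88.7 and 86.8 CPM in WT A, B and C. It measured 107, 94.4 and 88.1 CPM in the knockout libraries. Knockout A and B were above every WT library and knockout C was not. The means were 85.0 ± 4.98 and 96.6 ± 9.69 CPM (SD, n = 3), and the log2 fold change of 0.18 was not called (95% interval -0.02 to 0.39, adjusted p of 0.241 by edgeR). That interval spans from 0.985-fold to 1.31-fold of WT. The ratio of Lrp5 to Lrp6 RPKM was 0.936, 0.951 and 1.07 in WT and 1.38, 1.05 and 0.974 in the knockout, which overlapped (exact two-sided permutation p of 0.3, where 3 libraries against 3 cannot go below 0.1).

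Of the 10 receptors, 2 were called, Fzd7 lower and Fzd3 higher, against 13.3% of all tested genes. The libraries of 3 receptors did not overlap between genotypes (Fzd3, Fzd6 and Fzd7), against 30.7% of all tested genes. Both shares are close to those of the transcriptome. The median log2 fold change of the 10 was 0.16, against -0.01 over all tested genes.

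**Figure D2:**
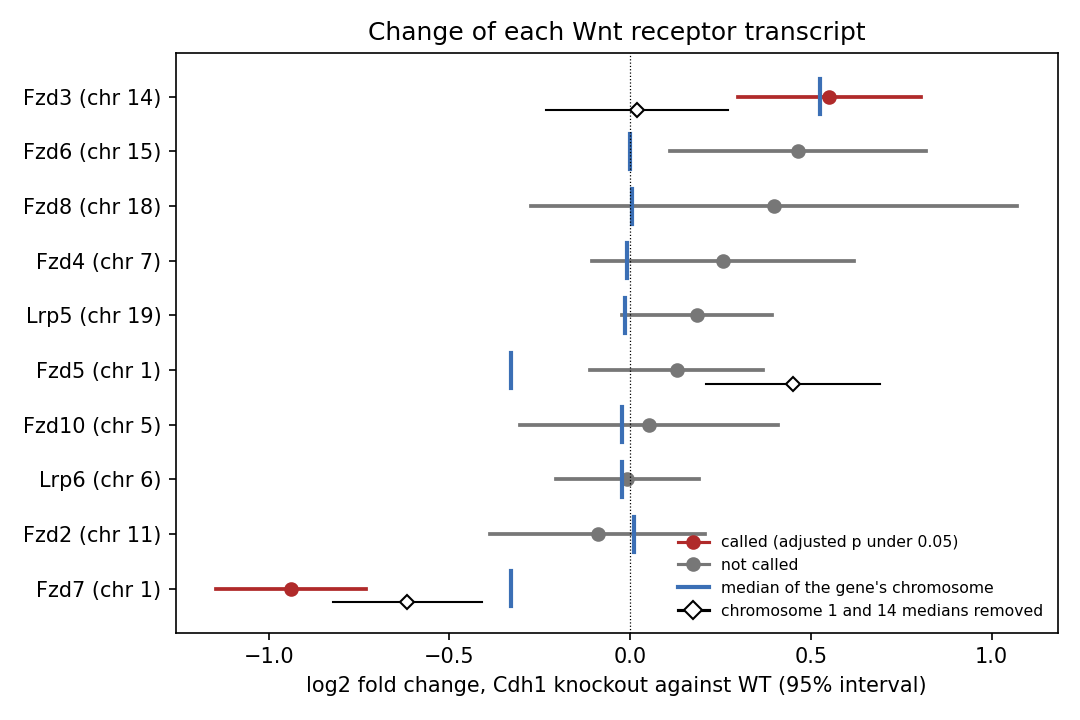
Log2 fold change of each receptor in the knockout against WT with its 95% interval, beside the median change of its chromosome (blue bar) and, for the genes on chromosomes 1 and 14, the change after those medians were removed (open diamond). Fzd7 (-0.94) and Fzd3 (0.55) were called, and after removal Fzd3 lies at 0.02 and Fzd5 at 0.45.

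The make-up of the Frizzled pool followed from these levels. Fzd1 and Fzd9, which are not among the 10, were counted so that the pool holds all 10 Frizzled genes. They averaged 4.12 ± 1.72 and 8.39 ± 1.16 CPM in WT, or 0.981 and 3.66 RPKM, and were not called. Fzd7 made up 45.7%, 52.7% and 46.7% of the summed Frizzled RPKM in WT A, B and C and 33.5%, 28.2% and 28.7% in knockout A, B and C. Its share was lower in every knockout library than in any WT library. Fzd5 made up 28.2%, 24.5% and 29.3% in WT and 30.9%, 37.5% and 37.1% in the knockout, so its share was above WT in every knockout library although its own level was not called.

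On average Fzd7 made up 48.4% ± 3.75 of the pool in WT and 30.1% ± 2.93 in the knockout (SD, n = 3). Fzd7 and Fzd5 together made up 75.7% ± 1.65 and 65.3% ± 0.762, and the other 8 Frizzled genes the remaining 24.3% and 34.7%. Fzd3 went from 3.80% to 6.61% and Fzd6 from 3.74% to 6.11% of the pool. Because shares add up to the whole, a fall of Fzd7 raises the shares of the others without a change in their own level.

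The ratio of Fzd7 to Fzd5 RPKM was 1.62, 2.15 and 1.60 in WT A, B and C and 1.08, 0.752 and 0.774 in the knockout libraries. All WT ratios were above all knockout ratios, and the exact two-sided permutation p was 0.1, the smallest that 3 libraries against 3 can give. The summed Frizzled level was 87.9, 96.7 and 92.5 RPKM in WT and 72.3, 82.1 and 79.1 RPKM in the knockout, a mean of 84.3% of WT with no overlap. The summed Lrp5 and Lrp6 level was 27.3, 30.3 and 28.0 RPKM in WT and 30.7, 30.7 and 29.7 RPKM in the knockout, which overlapped. Summed Frizzled transcript per summed Lrp transcript was 3.22, 3.19 and 3.30 in WT and 2.35, 2.68 and 2.66 in the knockout.

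**Figure D3:**
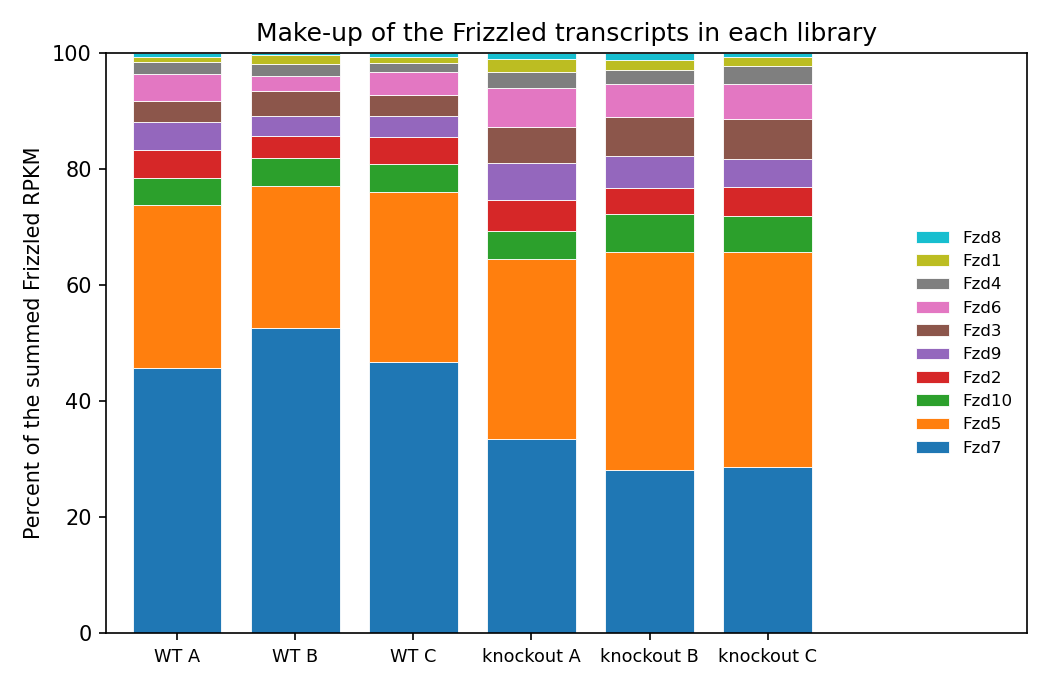
Percent of the summed Frizzled RPKM that each of the 10 Frizzled genes makes up, 1 stacked bar for each library. The lowest block, Fzd7, takes between 45.7% and 52.7% in WT and between 28.2% and 33.5% in the knockout, and the Fzd5 block above it takes 24.5% to 29.3% and 30.9% to 37.5%.

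The changes of Fzd3, Fzd5 and Fzd7 lay on chromosomes whose genes moved together. The median log2 fold change was -0.33 over 1002 tested genes of chromosome 1, where 27.8% were called lower, and 0.53 over 622 tested genes of chromosome 14, where 49.8% were called higher. The other 7 receptors lie on chromosomes with medians between -0.02 and 0.01. What moved these chromosomes was not tested.

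Fzd7 fell further than its chromosome: it ranked 114th from the lowest of 1002 genes, and the 26 other tested genes within 1 Mb on either side had a median of -0.34, with 9 called lower and 0 higher. Fzd5 went against its chromosome, at the 126th place from the highest, while the 11 tested genes within 1 Mb had a median of -0.39, with 5 called lower and 0 higher. Fzd3 matched its chromosome, at the 293rd place from the highest of 622, and the 19 tested genes within 1 Mb had a median of 0.58, with 13 called higher and 1 lower. Relative to its chromosome, the position of Fzd3 was thus near the middle.

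When each chromosome's median was removed from the knockout libraries for chromosomes 1 and 14, 9.84% of all tested genes were called. These values are relative to the chromosome's median, which was taken as fixed, and not to the WT level alone. Fzd7 remained called lower, with a log2 fold change of -0.62 (SE 0.10, 95% interval -0.82 to -0.41, adjusted p of 0.000805 by edgeR), or 0.652-fold relative to its chromosome. Fzd5 became called higher relative to its chromosome, at 0.45 (95% interval 0.21 to 0.69, adjusted p of 0.0191). Against WT without this removal, Fzd5 was at 0.13 and not called. Fzd3 was no longer called, at 0.02 (95% interval -0.23 to 0.27, adjusted p of 0.951).

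The rest of the receptor system was described by 11 lists with 121 genes, of which 99 were tested. Of these, 18 were called higher and 5 lower, or 23 in all, against 13.3% of all tested genes called, 7.6% higher and 5.71% lower. The median log2 fold change of the 99 was 0.09, and the counts of single lists given next were not tested against those shares. Among the closest relatives of the receptors, Smo, the Hedgehog transducer with a Frizzled-like domain, was called higher (50.8 ± 1.76 to 66.0 ± 4.63 CPM, log2 fold change 0.38), while Fzd1 and Fzd9 were not called. Smo no longer passed in 3 of the 6 fits with a library removed. Of 6 tested receptors of other families, 2 were called higher. Ptk7, a co-receptor of planar cell polarity signalling, rose from 136 ± 1.01 to 225 ± 22.2 CPM (log2 fold change 0.73, adjusted p of 8.13e-05 by edgeR). Ror2, a Wnt5a receptor, went from 22.6 ± 1.31 to 31.0 ± 4.41 CPM at an adjusted p of 0.0293, which was lost in 5 of the 6 fits without a library.

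Ligands for these receptors were scarce. Of 20 ligand genes 12 were tested, and the whole list summed to between 25.7 and 28.6 CPM in WT libraries and between 29.97 and 38.5 CPM in knockout libraries. Wnt11, a ligand mostly linked to polarity and movement, was the 1 called, from 3.06, 3.28 and 4.50 CPM in WT to 7.02, 8.56 and 10.9 CPM in knockout libraries, at a log2 fold change of 1.29 (adjusted p of 0.00204 by edgeR). Its exons overlap an opposite-strand gene over 10.1% of their length. Per length, Wnt9a was the highest ligand in WT, at 1.65 RPKM on average, and Wnt11 in the knockout, at 2.45 RPKM against 2.09 RPKM for Wnt9a. Wnt9a did not pass, at a log2 fold change of 0.33 (adjusted p of 0.396). For ligand release, Porcn, the enzyme that attaches the lipid to Wnt, passed narrowly at an adjusted p of 0.0495 (log2 fold change 0.35) and was lost in 8 of 14 alternatives. Wls, the Wnt carrier, was not called.

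Of 9 tested genes for proteins that take Frizzled receptors off the membrane or protect them, 1 was called, Lgr4, a receptor for R-spondins that spares Frizzled from removal. It was lower, at 101, 96.2 and 84.2 CPM in WT and 70.5, 73.8 and 72.7 CPM after loss of E-cadherin, a log2 fold change of -0.37 (adjusted p of 0.0147 by edgeR). Lgr4 did not pass in 4 of the 6 fits with a library removed, where the adjusted p reached 0.0951. Usp8, a deubiquitinase that returns Frizzled to the surface, had the highest level per length of this list and did not pass, at a log2 fold change of -0.01 (adjusted p of 0.955).

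Of 13 tested genes for inhibitors that act outside the cell or for relatives of them, 3 were called higher and 0 lower. Sfrp1, a secreted protein with a Frizzled-like domain that binds Wnt, rose from 164 ± 3.01 to 308 ± 27.1 CPM (log2 fold change 0.91, adjusted p of 1.13e-05 by edgeR) and had the highest level of the list. Dkkl1, a relative of the Lrp5/6 antagonists of the Dickkopf family, rose from 4.44 ± 0.714 to 9.63 ± 2.18 CPM (log2 fold change 1.11). Notum, which removes the lipid from Wnt, went from 2.90 ± 0.887 to 6.46 ± 1.63 CPM (log2 fold change 1.15, adjusted p of 0.0143). It did not pass in 3 of the 6 fits with a library removed, and opposite-strand genes cover 38.3% of its exon bases.

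Genes that fold or move the receptors changed in both directions, 3 higher and 2 lower of 10 tested. Mesd, the chaperone that Lrp5 and Lrp6 need to fold, rose from 47.4 ± 1.32 to 69.2 ± 3.30 CPM. Its log2 fold change was 0.55 (adjusted p of 0.00103 by edgeR), while its clients Lrp5 and Lrp6 were not called. Gm49493, on the same strand, covers 9.95% of the Mesd exon bases. Atp6ap2, the prorenin receptor that links Lrp6 to the proton pump, rose from 93.1 ± 5.92 to 180 ± 6.31 CPM (log2 fold change 0.95). Shisa2, of the family that retains Frizzled in the endoplasmic reticulum, rose from 7.53 ± 1.2 to 18.8 ± 2.68 CPM (log2 fold change 1.31) and lies on chromosome 14. With the chromosome medians removed, Shisa2 was at 0.78 and still called (adjusted p of 0.00871). Its relative Shisa3 was called lower, with 68, 44 and 29 counts in WT and 2, 10 and 12 counts in the knockout. Cav1, which takes part in Lrp6 uptake, was called lower from 32, 20 and 20 counts in WT to 0, 2 and 2 counts in the knockout.

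In the wider lipoprotein receptor family, 3 of 10 tested genes were called higher and 0 lower. Lrp1, a large endocytic receptor, rose from 197 ± 18.2 to 407 ± 21.4 CPM (log2 fold change 1.05, adjusted p of 5.21e-06 by edgeR). Lrp10 rose from 32.8 ± 1.62 to 61.7 ± 2.89 CPM (log2 fold change 0.91), and it lies on chromosome 14 with 11.2% of its exon bases under an opposite-strand gene. With the chromosome medians removed, Lrp10 was at 0.38 and still called (adjusted p of 0.0238). Per length, Lrp11 was the highest of this family in WT, at 20.8 RPKM against 12.1 RPKM for Lrp1. In the knockout Lrp1 was higher, at 25.0 RPKM against 21.6 RPKM for Lrp11, which was not called. Lrp5 and Lrp6 thus differed in their calls from 3 relatives, and the difference itself was not tested.

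Among 15 tested cytoplasmic partners that act next to the receptors, 1 was called. Dab2, an adaptor that binds Lrp6 and is also a marker of primitive endoderm, went from 17.3 ± 5.29 to 34.9 ± 17.5 CPM (adjusted p of 0.0303 by edgeR). Its libraries overlapped, with 54.0 CPM in knockout C the highest, and the call was lost in 5 of the 6 fits without a library and with DESeq2. Csnk1a1, the kinase with the highest level of this list, was at 607 ± 32.3 and 605 ± 27.0 CPM and not called.

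Of 10 tested genes of planar cell polarity, the pathway that Fzd3 and Fzd6 serve, 2 were called higher and 1 lower. Celsr1, an adhesion receptor that pairs with Frizzled across cell borders, rose from 48.0 ± 1.58 to 94.2 ± 5.50 CPM (log2 fold change 0.97, adjusted p of 8.47e-06 by edgeR). Prickle3, on the X chromosome, rose from 4.51 ± 1.03 to 11.1 ± 1.49 CPM (log2 fold change 1.30). Plp2, on the opposite strand, covers 9.4% of the Prickle3 exon bases. Ankrd6, which binds Dishevelled, fell from 38.6 ± 1.82 to 25.4 ± 4.35 CPM (log2 fold change -0.60). Scrib, a polarity scaffold with the highest level of the list, was at 145 ± 3.85 and 168 ± 4.29 CPM and not called (adjusted p of 0.101).

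The heparan sulfate carriers that present Wnt to its receptors gave 1 call in each direction among 9 tested. Gpc3, a glypican, fell from 114 ± 9.17 to 55.2 ± 12.2 CPM (log2 fold change -1.05, adjusted p of 0.000127 by edgeR). Gpc6, on chromosome 14, rose from 3.79 ± 0.762 to 7.29 ± 0.865 CPM (log2 fold change 0.94, adjusted p of 0.0126). That call was lost with the chromosome medians removed (0.41, adjusted p of 0.295) and without WT A (adjusted p of 0.0596).

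**Figure D4:**
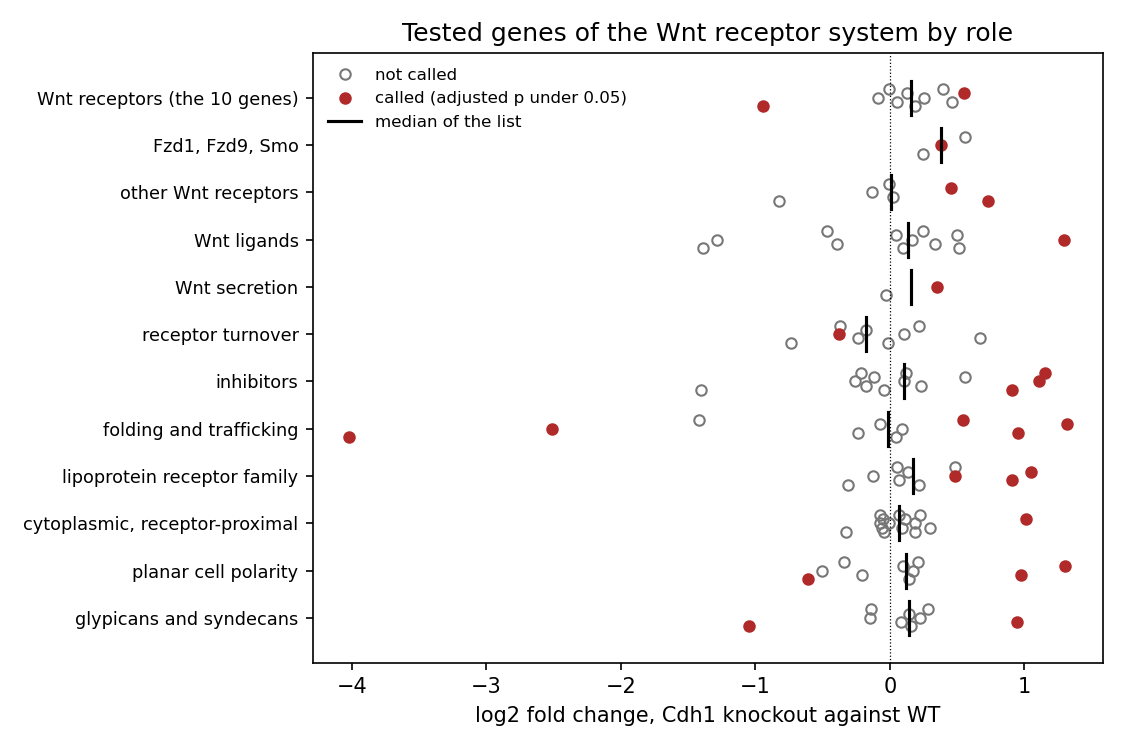
Log2 fold change in the knockout against WT of every tested gene of the 10 receptors and of the 11 lists around them, filled where called (adjusted p below 0.05), and with a bar at each list's median. The medians lie between -0.17 (receptor turnover) and 0.38 (Fzd1, Fzd9 and Smo), and the lowest point is Cav1.

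The labelled cell type was compared with its markers. All 10 pluripotency markers were tested and present, and summed to between 4981 and 5460 CPM in WT and between 5799 and 7135 CPM in knockout libraries, with 3 called higher. Primitive endoderm markers moved with genotype: 10 of 10 were called higher, against 7.6% of all tested genes. Their sum ranged from 303 to 429 CPM in WT and from 883 to 1677 CPM in the knockout. Gata4 and Sox7 of this list lie on chromosome 14, and Dab2 lost its call in 5 of the 6 fits without a library. The part of primitive endoderm markers in the receptor changes was not tested. In bulk RNA fewer cells of a type and less RNA per cell cannot be told apart.

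Markers of other cell types were also counted. Of 13 fibroblast markers, which would show feeder cells, 7 were tested, with 1 called higher and 2 lower. The 1 called higher was Pdgfra, which also stands among the primitive endoderm markers. The sum of the 13 went from between 1749 and 1897 CPM in WT to between 1028 and 1174 CPM in the knockout. It was mostly Fn1, which lies on chromosome 1, where the median log2 fold change was -0.33. Fap was at 0 counts in all libraries, and Postn, Lum, Dcn and Twist2 were at 18 counts or fewer. Of epiblast and mesoderm markers 8 of 10 were tested, with 2 called lower and sums of 154 to 166 and 103 to 112 CPM. Of neuroectoderm markers 5 of 10 were tested, with 2 called lower and sums of 139 to 178 and 98.7 to 135 CPM. The part of these shifts in the receptor changes was not tested.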

How the data were processed

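RNA of 3 WT and 3 knockout libraries was extracted with TRIzol and made into libraries with a directional kit, per the labels' protocols. What the authors deposited is a single matrix of unnormalized read counts, with a row for each gene. The submitters' processing notes name cutadapt 2.10, STAR 2.7.5b, featureCounts 2.0.1 and the genome build GRCm38; the strand setting is not given in the sources used here. Of 55401 identifiers, 55141 received a symbol from GENCODE M21. Between 78.1% and 83.1% of counts from 1 to 10 were even, against 50.2% to 52.1% of high counts, so both mates of a pair may have been counted, and a fit on counts divided by 2 is among the alternatives.

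The model was fitted with edgeR 4.0.16 under R 4.3.3: filterByExpr by group (smallest count of 10, smallest total of 15) left 17325 of 32417 genes with counts, TMM scaled the libraries, and a quasi-likelihood test on genotype used all 6 libraries. P-values were adjusted by Benjamini-Hochberg over all tested genes. Standard errors were derived from the F statistic. CPM are means ± SD over 3 libraries. RPKM divide them by the exon length in the table. The script was tested on simulated data.

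Alternatives were RLE scaling, no filter, a filter of 1 CPM in 3 libraries, DESeq2 1.42.0, limma-voom (limma 3.58.1), the replicate letter as a block, removal of the medians of chromosomes 1 and 14, counts divided by 2, leaving out each library, and, chosen after seeing the data, the length of the longest coding transcript. Named genes were the 10 receptors, Cdh1 and, of each list, up to 5 called genes with the largest change and the gene with the highest level per length over all 6 libraries; Fzd1, Fzd9, Wls and the markers given by name were added to these after their values were seen. For 1 gene named by this rule, no value is reported here. The receptors and lists were chosen with earlier results of these data known.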

Additional observations from a re-analysis of the deposited data

How the results depend on the processing

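In 12 of 14 alternatives 2 of the 10 receptors were called, as in the fit reported. In 11 of them these were Fzd3 and Fzd7, and with the medians of chromosomes 1 and 14 removed they were Fzd5 and Fzd7. Fzd6 made it 3 with no filter on low counts and with the replicate block. Leaving out 1 library gave 2 in every fit. In the lists around the receptors 23 genes of 99 tested were called, 25 with the replicate block, and 17 to 24 without 1 library. No filter on low counts gave 28 of 116 tested, the filter of 1 CPM in 3 libraries 21, and counts divided by 2 gave 22. The Fzd7 share of the Frizzled pool was 46.2% to 49.7% in WT and 28.4% to 31.1% in the knockout without 1 library. With the block, Fzd7 was at -0.93, Fzd3 at 0.55 and Fzd6 at 0.49 (adjusted p of 0.0421). Deviations of same-lettered libraries correlated at 0.19 in A, -0.10 in B and 0.38 in C, and all calls went from 2307 to 2686 with the block. For libraries with different letters, the correlations lay between -0.38 (WT C with knockout A) and 0.23 (WT B with knockout A). These values do not settle whether the letters pair the libraries. Without WT A there were 1374 calls and without WT B 1470. Signs turned for transcripts near 0: Fzd10 was at -0.010 without WT A and -0.058 without knockout B, and its range without 1 library ended at 0.209. Lrp6 was at 0.019 with no filter, 0.050 without WT B and 0.062 without knockout A, and its range without 1 library began at -0.041. Over the 26 called genes checked, 327 of the values under an alternative stayed called in the same direction, 36 were no longer called and 0 reversed. Cav1 had no value under the filter of 1 CPM in 3 libraries, which removed it. Counts of 40 to 126 limit the precision for Fzd8.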
